A study of Mus musculus with 32 samples.

Results

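The monoamine neuron genes described here are 10 genes of the 24421 in a table of raw read counts: Tph2, Slc6a4, Fev and Slc17a8 for serotonin neurons, Dbh and Slc6a2 for noradrenaline neurons, Slc6a3 for dopamine neurons, and Th, Ddc and Slc18a2, which several of these neurons share. They were listed by name, with earlier results of these data known, as a gauge of how much raphe, locus coeruleus and midbrain dopamine tissue each nucleus sample held. The libraries come from tissue samples of the albino mouse B6(CG)Tyr(c-2J)/J, which carries the c-2J allele of Tyr, and of pigmented C57BL/6, with 4 libraries for each genotype from abducens (CN6) samples, oculomotor (CN3) samples, extraocular muscle (EOM) and tibialis anterior (TA), 32 in all. The study asked what goes with nystagmus, an involuntary oscillation of the eyes, in the albino strain. The labels give neither age, sex nor treatment, and name no transgene. Whether replicates are different mice is not stated, so a p-value reflects no more than library-to-library spread, which may be technical.

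Monoamine neurons are few and sit in compact groups along the brainstem: serotonin neurons in the raphe nuclei of the midline, noradrenaline neurons in the locus coeruleus under the fourth ventricle, and dopamine neurons in the ventral midbrain. Each makes its transmitter with a dedicated enzyme (Tph2 for serotonin, Th and then Dbh for noradrenaline, Th alone for dopamine), uses Ddc for the shared decarboxylation step, loads vesicles through Slc18a2 and takes the transmitter back through its own transporter. The oculomotor nucleus lies beside the dorsal raphe and above the dopamine cell groups, and the abducens nucleus lies in the pons, not far from the locus coeruleus, so a tissue sample of either nucleus can hold neighbouring monoamine neurons.

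Promoters of 9 of the 10 genes were matched in RefSeq (GRCm38.p6, 300 bases a promoter). Both strands were searched for the cAMP response element TGACGTCA, the TATA box TATAAA and the GATA motif AGATAA. Tph2 and Fev are shown because they moved together across libraries and both hold the GATA motif, and Th and Slc18a2 because they hold the cAMP response element. Slc6a4 and Slc17a8 moved with Tph2 more closely than Fev did (Pearson's r of 0.97 and 0.93 against 0.91), and their promoters held none of these motifs. Each line runs 5′ to 3′ from 150 bases before to 30 bases after the annotated start, with motif matches in capitals. The windows are chr10:115184993-115185172 (minus strand) for Tph2, chr1:74885379-74885558 (minus strand) for Fev, chr7:142899966-142900145 (minus strand) for Th and chr19:59260728-59260907 (plus strand) for Slc18a2.
Tph2: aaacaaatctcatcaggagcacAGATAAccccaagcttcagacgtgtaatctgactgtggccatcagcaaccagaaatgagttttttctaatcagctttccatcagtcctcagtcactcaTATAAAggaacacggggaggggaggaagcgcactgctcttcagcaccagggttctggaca
Fev: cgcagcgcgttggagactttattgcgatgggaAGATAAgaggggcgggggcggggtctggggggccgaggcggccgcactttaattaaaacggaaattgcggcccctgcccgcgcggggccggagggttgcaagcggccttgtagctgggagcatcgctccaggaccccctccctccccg
Th: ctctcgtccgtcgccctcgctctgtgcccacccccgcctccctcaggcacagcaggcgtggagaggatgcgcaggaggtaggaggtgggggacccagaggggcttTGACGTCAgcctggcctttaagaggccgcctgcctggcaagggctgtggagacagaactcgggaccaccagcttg
Slc18a2: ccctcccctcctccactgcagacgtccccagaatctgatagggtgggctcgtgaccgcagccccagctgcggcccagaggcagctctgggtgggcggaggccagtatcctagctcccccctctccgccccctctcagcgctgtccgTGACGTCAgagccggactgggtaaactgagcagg
The cAMP response element was in 1.79% of 32851 RefSeq promoters of the same length, the GATA motif in 11.2% and the TATA box in 13.6%. Slc18a2 also held the GATA motif on the reverse strand, outside the window shown, and Ddc held a TATA box on the reverse strand. A match is a string of letters and not a measured site.

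Before any comparison, each library was set against its label with muscle and neuron genes, and 8 albino libraries went against theirs. Brain kind was found for albino TA 1, TA 2, EOM 1 and EOM 2, and muscle kind for albino CN6 3, CN6 4, CN3 3 and CN3 4, while the other 24 matched. Brain libraries thus number 16, 8 of each genotype, with totals of 28261869 to 44254021 counts. In what follows, the albino CN6 set is the libraries labelled albino CN6 1, CN6 2, TA 1 and TA 2, and the albino CN3 set is those labelled albino CN3 1, CN3 2, EOM 1 and EOM 2. That grouping rests on marker genes and not on labels. Hoxb3, a hindbrain gene, had 2.61, 20.8, 21.3 and 11.6 CPM (a gene's counts scaled by the total of its library) in the albino CN6 set and 23.0 to 31.4 CPM in C57BL/6 CN6, against 0 to 0.191 CPM in the albino CN3 set and 0.0530 to 0.271 CPM in C57BL/6 CN3. The library labelled albino CN6 1 stood apart from the rest of its set, and which site it came from cannot be told from the labels. Nnt, which differs between C57BL/6 substrains, separated the brain libraries by genotype label. It had 22.0 to 30.9 CPM in the 8 albino and 46.0 to 60.8 CPM in the 8 C57BL/6 libraries. Nnt is no marker of the Tyr allele, so substrain and allele cannot be told apart in the genotype comparisons.

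Brain comparisons come from 12 libraries whose kind matches a CN3 or CN6 label (2 albino and 4 C57BL/6 per nucleus) unless all 16, with the albino sets above, are named. The threshold for a call was an adjusted p under 0.05 (edgeR's quasi-likelihood test, Benjamini-Hochberg over all genes tested). Log2 fold changes have a standard error (SE) worked back from the test. It is the absolute log2 fold change divided by the square root of the test's F statistic. How many of all genes separate 2 groups without overlap was not counted, so such separation of a member is description only. In bulk samples, fewer cells of a type and less RNA per cell cannot be told apart.

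Serotonin neuron genes were scarce in C57BL/6 CN3, low in C57BL/6 CN6 and had their highest values in albino libraries of both nuclei. Tph2, the enzyme that starts serotonin synthesis in neurons (chromosome 10, 115078641 to 115185022, minus strand, mm10), had 244, 11.5, 32.0 and 67.7 CPM in the libraries labelled albino CN6 1, CN6 2, TA 1 and TA 2, against 8.0, 8.41, 17.1 and 5.30 CPM in C57BL/6 CN6 1 to 4. In the libraries labelled albino CN3 1, CN3 2, EOM 1 and EOM 2 it had 90.6, 233, 220 and 24.4 CPM, against 1.11, 0.859, 3.23 and 1.09 CPM in C57BL/6 CN3 1 to 4. The CN3 ranges of the genotypes lie far apart, and in CN6 the library labelled albino CN6 2 lies inside the C57BL/6 range. Slc6a4, the serotonin transporter (chromosome 11, 76998603 to 77032340, plus strand), had 130, 4.72, 15.3 and 28.5 CPM in the albino CN6 set, against 5.15, 3.21, 8.98 and 2.33 CPM in C57BL/6 CN6. It had 56.5, 129, 143 and 14.2 CPM in the albino CN3 set, against 0, 0.0904, 2.44 and 0.764 CPM in C57BL/6 CN3. The 2 genes put the libraries in nearly the same order, with albino CN6 1, albino CN3 2 and albino EOM 1 at the top for both.

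Fev, a transcription factor of serotonin neurons (chromosome 1, 74881509 to 74885419, minus strand), was low everywhere. It had 4.82, 0.418, 0.991 and 1.57 CPM in the albino CN6 set, against 0.384, 0.357, 0.493 and 0.100 CPM in C57BL/6 CN6. In the albino CN3 set it had 2.03, 4.83, 5.15 and 0.753 CPM, against 0.391, 0.136, 0.530 and 0.235 CPM in C57BL/6 CN3. All 4 albino values exceeded every C57BL/6 value in CN3, and 3 of 4 did in CN6. Slc17a8, the vesicular glutamate transporter VGLUT3 of many raphe neurons (chromosome 10, 89574020 to 89621253, minus strand), had 31.0, 6.49, 8.0 and 14.9 CPM in the albino CN6 set, against 4.16, 7.54, 4.27 and 4.52 CPM in C57BL/6 CN6. It had 7.71, 29.3, 16.2 and 3.01 CPM in the albino CN3 set, against 1.30, 0.949, 1.43 and 1.03 CPM in C57BL/6 CN3. Its CN3 groups do not overlap, and in CN6 albino CN6 2 fell below C57BL/6 CN6 2.

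In albino CN3 over C57BL/6 CN3, 3 members rose and 0 fell, where 0.247% of 16604 genes were called in either direction and 0.205% higher. Tph2 rose by 6.69 ± 0.92 (log2 ± SE, adjusted p = 0.00981), Slc6a4 by 6.81 ± 1.11 (adjusted p = 0.0243) and Slc17a8 by 4.00 ± 0.56 (adjusted p = 0.0102). Fev had 3.43 ± 0.75 and was not called (adjusted p = 0.107). With the albino sets, where 2.34% of 16342 genes were called, 1.42% higher, Fev rose too, by 3.31 ± 0.74 (adjusted p = 0.0296), beside Tph2 at 6.49 ± 0.99 (adjusted p = 0.00351), Slc6a4 at 6.69 ± 1.14 (adjusted p = 0.00805) and Slc17a8 at 3.59 ± 0.62 (adjusted p = 0.00884). None of the 3 first calls remained without albino CN3 2 (adjusted p of 0.117 to 0.233) or without C57BL/6 CN3 4 (0.0584 to 0.113). Slc6a4 was also lost without C57BL/6 CN3 1 (0.0511), and limma voom called 0 members here. Cholinergic neuron genes moved with this contrast. Of 12 tested of the 14 cholinergic motor neuron genes, 5 rose and 0 fell, and their summed level was 312 to 459 CPM in the albino CN3 set against 237 to 299 CPM in C57BL/6 CN3. Chat, which makes acetylcholine, had 6.86 to 16.7 CPM in that set and 0.212 to 0.717 CPM in C57BL/6 CN3, so the motor neuron marker of a CN3 sample was near absent from the C57BL/6 CN3 libraries. Its part in the serotonin result was not tested.

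In albino CN6 over C57BL/6 CN6, where 0.0301% of 16604 genes were called (1203 genes at an unadjusted p under 0.05, and 64 genes and 1 member by DESeq2), 0 of the 4 serotonin neuron genes passed. Tph2 had 3.70 ± 0.79 (adjusted p = 0.266), Slc6a4 3.77 ± 0.93 (adjusted p = 0.394), Fev 2.95 ± 0.76 (adjusted p = 0.430) and Slc17a8 1.86 ± 0.52 (adjusted p = 0.484). The pair of albino libraries differed widely: Tph2 was 244 CPM in albino CN6 1 and 11.5 CPM in albino CN6 2. Without albino CN6 1, the library that stood apart, 4 genes and 0 members were called, with Tph2 at 0.25 and Slc6a4 at −0.051. Without albino CN6 2, 228 genes and 6 members were called, Tph2 at 4.63 (adjusted p = 0.00129). With the albino sets 0.116% of genes were called and 0 members, with Tph2 at 3.18 ± 0.81 (adjusted p = 0.177). The genotype difference in CN6 minus that in CN3 was called for 2 genes (0.012%) and 0 members (803 genes had an unadjusted p under 0.05), so it was not shown that the serotonin genes differ between genotypes more in one nucleus than in the other.

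Between the nuclei of C57BL/6, whose libraries all matched their labelled kind, 2 of the 4 serotonin neuron genes passed, both higher in CN6. In C57BL/6 CN6 over C57BL/6 CN3, 26% of 16604 genes passed (12.7% upward, 13.3% downward), and of the 10 members 4 rose and 1 fell. Slc17a8 rose by 2.15 ± 0.51 (adjusted p = 0.00940) and Tph2 by 2.65 ± 0.85 (adjusted p = 0.0366), while Slc6a4 had 2.58 ± 1.07 (adjusted p = 0.0944) and Fev 0.08 ± 0.76 (adjusted p = 0.952). The Tph2 call was lost in 6 of the 12 fits that leave out a library, with an adjusted p of up to 0.103 without C57BL/6 CN6 3, and in the 16-library fit (0.0504), where 29.9% of genes were called. Tph2 was not called in albino CN6 over albino CN3, where it had −0.35 ± 0.90 (adjusted p = 0.938), and −0.67 ± 0.72 with the sets (adjusted p = 0.593). Single libraries set this value: it was −3.79 and called without albino CN6 1 (adjusted p = 0.0450; 250 genes called), 0.49 without albino CN3 2 and 0.59 without albino CN6 2, neither called.

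**Figure D1:**
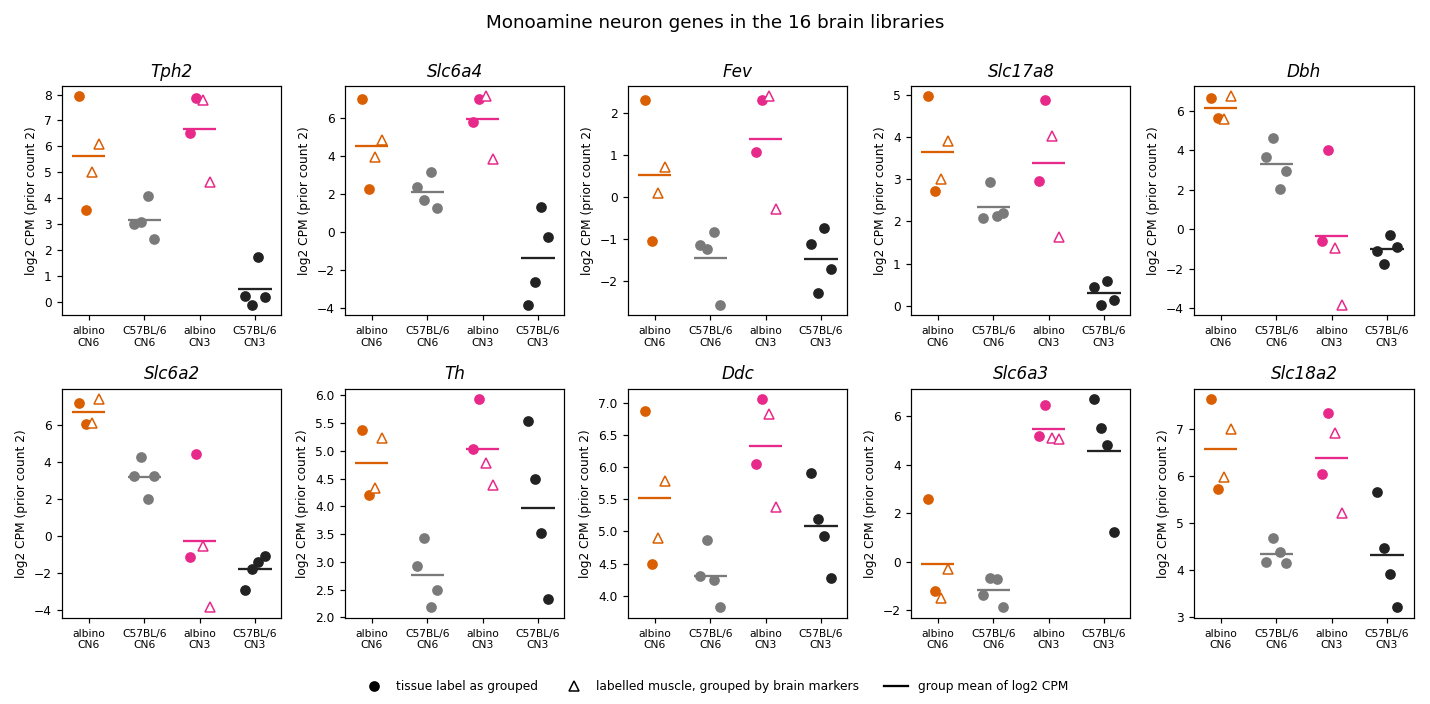
Log2 CPM (prior count 2, vertical axis) of each of the 10 genes in the 16 brain libraries, by nucleus and genotype. Points are libraries, open triangles those labelled as muscle, and lines the group means; Dbh and Slc6a2 are high in both CN6 groups, Slc6a3 in both CN3 groups, and Tph2 and Slc6a4 are lowest in C57BL/6 CN3.

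Noradrenaline neuron genes were present in the CN6 samples of both genotypes, with higher values in the albino ones, and near absent from most CN3 samples. Dbh, which turns dopamine into noradrenaline (chromosome 2, 27165233 to 27183200, plus strand), had 99.9, 50.1, 47.9 and 105 CPM in the libraries labelled albino CN6 1, CN6 2, TA 1 and TA 2, against 12.3, 24.4, 4.05 and 7.61 CPM in C57BL/6 CN6. It had 0.581, 15.8, 0.437 and 0 CPM in the albino CN3 set, against 0.391, 0.226, 0.742 and 0.470 CPM in C57BL/6 CN3. The CN6 ranges of the genotypes do not overlap, and albino CN3 2 alone among the CN3 libraries reached the range of C57BL/6 CN6. Slc6a2, the noradrenaline transporter (chromosome 8, 92960079 to 93001667, plus strand), had 145, 66.1, 67.0 and 167 CPM in the albino CN6 set, against 9.24, 18.8, 3.91 and 9.21 CPM in C57BL/6 CN6. In the albino CN3 set it had 0.387, 21.7, 0.624 and 0 CPM, against 0.0652, 0.226, 0.318 and 0.412 CPM in C57BL/6 CN3. It follows Dbh closely, the single high CN3 library included.

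In C57BL/6 CN6 over C57BL/6 CN3, Dbh rose by 4.75 ± 0.89 (adjusted p = 0.00254) and Slc6a2 by 5.32 ± 1.03 (adjusted p = 0.00299), and both were called without any single library. By limma voom Dbh alone of the members was called (adjusted p = 0.0463), and Slc6a2 was not (0.0716). In albino CN6 over albino CN3, with 2 libraries a group, 0 members were called and 0.0361% of 16604 genes (1605 at an unadjusted p under 0.05), with Dbh at 3.19 ± 0.94 (adjusted p = 0.328). With the albino sets 10.7% of genes passed (6.09% upward, 4.58% downward), and Dbh rose by 4.18 ± 0.90 and Slc6a2 by 4.31 ± 0.93 (adjusted p = 0.0108 for each). Between genotypes in CN6, Dbh had 2.63 ± 0.72 (adjusted p = 0.469) and Slc6a2 3.35 ± 0.75 (adjusted p = 0.315), and 2.64 ± 0.82 (0.266) and 3.43 ± 0.87 (0.182) with the sets. Neither was called, and the groups of 4 do not overlap for either gene. Where albino CN3 2 was left out of the sets, both were called at 2.64 (adjusted p = 0.0189) and 3.43 (adjusted p = 0.00155).

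In CN3 the genotype value of this pair rested on 1 library. In albino CN3 over C57BL/6 CN3, Dbh had 4.19 ± 1.00 (adjusted p = 0.151) and Slc6a2 5.42 ± 1.11 (adjusted p = 0.0852), neither called. With the sets but without albino CN3 2 the Dbh value was −0.45. Choroid plexus genes, which mark tissue of the ventricle near the locus coeruleus, did not follow Dbh: the summed level of the 6 genes was 8295 CPM in albino TA 1 and 15.9 to 33.6 CPM in the rest of the albino CN6 set, against 26.6 to 194 CPM in C57BL/6 CN6.

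Dopamine transporter transcripts were under 1 CPM in 7 of 8 CN6 libraries and above 2 CPM in all CN3 libraries of both genotypes. Slc6a3 (chromosome 13, 73536747 to 73578672, plus strand) had 5.93, 0.359, 0.283 and 0.749 CPM in the albino CN6 set, against 0.320, 0.561, 0.548 and 0.201 CPM in C57BL/6 CN6. It had 36, 88.4, 34.7 and 33.2 CPM in the albino CN3 set, against 105, 45.4, 28.4 and 2.29 CPM in C57BL/6 CN3 1 to 4. The C57BL/6 CN3 libraries spread 45.6-fold, the widest of the members and groups with over 3 counts in every library, and enclose all albino CN3 values. Albino CN6 1, at 5.93 CPM, exceeded C57BL/6 CN3 4 at 2.29 CPM. Slc6a3 fell by 6.75 ± 1.12 in C57BL/6 CN6 over C57BL/6 CN3 (adjusted p = 0.00137), the one member to fall, and was not called by limma voom (−5.89, adjusted p = 0.170). In albino CN6 over albino CN3 it had −4.33 ± 1.27 and was not called (adjusted p = 0.321), and it fell by 4.70 ± 0.92 with the sets (adjusted p = 0.00678) with −6.68 where albino CN6 1 was left out of them (adjusted p = 0.00107).

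Between genotypes Slc6a3 did not pass. It had 0.48 ± 0.89 in albino CN3 over C57BL/6 CN3 (adjusted p = 0.878), 0.10 ± 0.72 with the sets (adjusted p = 0.965), and 2.90 ± 1.44 in albino CN6 over C57BL/6 CN6 (adjusted p = 0.729), where it was −0.18 without albino CN6 1.

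Th, the first enzyme for both catecholamines (chromosome 7, 142892752 to 142931128, minus strand), is used by both cell types and was present in both nuclei. It had 41.5, 18.4, 20.1 and 37.3 CPM in the albino CN6 set, against 7.58, 10.7, 4.46 and 5.55 CPM in C57BL/6 CN6. It had 32.9, 61.1, 27.3 and 20.8 CPM in the albino CN3 set, against 46.3, 22.5, 11.5 and 4.97 CPM in C57BL/6 CN3. The genotypes are apart in CN6 and overlap in CN3, where C57BL/6 CN3 1 to 4 keep the descending order that they have for Slc6a3. Th was the member closest to the threshold in C57BL/6 CN6 over C57BL/6 CN3, with −1.57 ± 0.55 (adjusted p = 0.0515), and fell with the sets (−1.57 ± 0.53, adjusted p = 0.0348). Between genotypes it was not called, with 2.08 ± 0.63 in CN6 (adjusted p = 0.534) and 1.16 ± 0.61 in CN3 (adjusted p = 0.495).

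Ratios of counts set Th against its partners in each nucleus. Per count of Dbh, Th had 0.354 to 0.419 counts in the albino CN6 set and 0.436 to 1.10 in C57BL/6 CN6. Per count of Slc6a3 it had 0.628 to 0.913 in the albino CN3 set, and 0.404 to 0.497 in the 3 C57BL/6 CN3 libraries with at least 100 counts of both genes. C57BL/6 CN3 4, with 78 counts of Slc6a3, had 2.17, so the 4 C57BL/6 CN3 libraries enclose the albino range. No test was run on these ratios.

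Ddc, the decarboxylase of all 3 transmitters (chromosome 11, 11814101 to 11898144, minus strand), had 117, 22.4, 29.8 and 54.9 CPM in the albino CN6 set, against 19.8, 29.0, 18.8 and 14 CPM in C57BL/6 CN6. It had 66.1, 133, 113 and 41.7 CPM in the albino CN3 set, against 59.9, 36.5, 30.5 and 19.4 CPM in C57BL/6 CN3. The genotypes overlap in both nuclei, and Ddc was not called in any of the 4 comparisons of the 12 libraries (adjusted p of 0.204 to 0.836). A gene on the opposite strand, 1700042O10Rik, overlaps it and reached at most 0.391 CPM. Opposite-strand genes also overlap Slc6a4 (Gm12343) and Slc18a2 (Gm29261). Neither is in the count table, so their levels are unknown.

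Slc18a2, the vesicular monoamine transporter (chromosome 19, 59260896 to 59296012, plus strand), had 201, 52.7, 63.4 and 129 CPM in the albino CN6 set, against 18, 25.6, 20.9 and 17.6 CPM in C57BL/6 CN6. It had 66.4, 164, 121 and 37.1 CPM in the albino CN3 set, against 50.9, 22.1, 15.1 and 9.14 CPM in C57BL/6 CN3. All 4 albino CN6 values lie above all C57BL/6 CN6 values, and in CN3 only albino EOM 2 lies below C57BL/6 CN3 1. It had 2.61 ± 0.57 in albino CN6 over C57BL/6 CN6 (adjusted p = 0.289) and 2.27 ± 0.57 in albino CN3 over C57BL/6 CN3 (adjusted p = 0.175), neither called. Between the nuclei its values were close, with −0.21 ± 0.50 in C57BL/6 (adjusted p = 0.789). Per count of Ddc, Slc18a2 had 1.71 to 2.35 counts in the albino CN6 set and 0.883 to 1.25 in C57BL/6 CN6, and 0.891 to 1.23 in the albino CN3 set and 0.472 to 0.849 in C57BL/6 CN3.

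**Figure D2:**
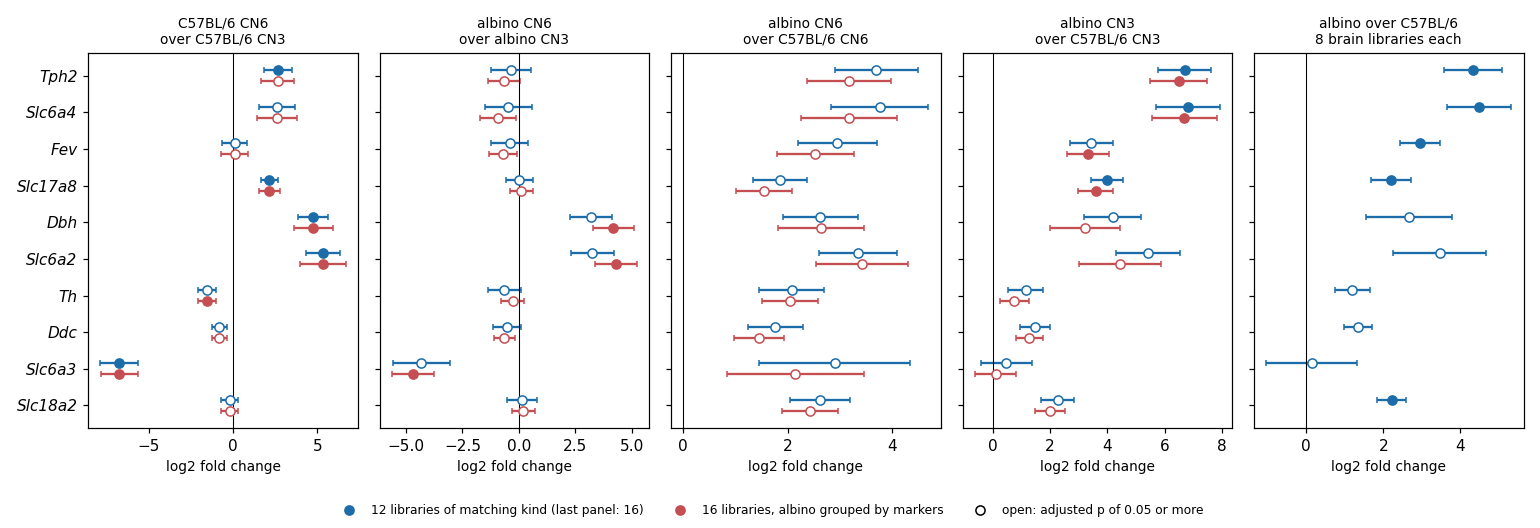
Log2 fold change (horizontal axis) with its standard error for each of the 10 genes in 5 comparisons. Blue points use the 12 libraries of matching kind (16 in the last panel), red points all 16 with the albino sets, and filled points have an adjusted p under 0.05; the genotype estimates are positive for all 10 genes in CN6, where none is filled.

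A comparison of genotype over all brain libraries needs no nucleus label for the albino ones. In the 8 albino over the 8 C57BL/6 brain libraries, 1.18% of 15869 genes were called, 0.599% higher, and 5 of the 10 members rose and 0 fell. Slc6a4 rose by 4.49 ± 0.83 (adjusted p = 0.0133), with a median of 42.5 CPM (4.72 to 143) in albino and 2.39 CPM (0 to 8.98) in C57BL/6 libraries. Tph2 rose by 4.34 ± 0.75 (adjusted p = 0.00767), with a median of 79.2 CPM (11.5 to 244) in albino and 4.27 CPM (0.859 to 17.1) in C57BL/6 libraries. For each of these genes 7 of 8 albino libraries exceeded the highest C57BL/6 library. Fev rose by 2.96 ± 0.52 (adjusted p = 0.00852, 7 of 8) and Slc18a2 by 2.22 ± 0.37 (adjusted p = 0.00621, 7 of 8), while Slc17a8 was just inside the threshold at 2.20 ± 0.52 (adjusted p = 0.0496, 6 of 8) and lost its call under 5 of 7 alternatives. Ddc had 1.35 ± 0.37 (adjusted p = 0.0851), Th 1.20 ± 0.44 (0.191), Slc6a2 3.46 ± 1.20 (0.161), Dbh 2.66 ± 1.13 (0.249) and Slc6a3 0.14 ± 1.18 (0.972), none called. With the nucleus of the sets as a term 8 members were called, among 793 of the 15869 genes. Limma voom called 136 genes and 1 member, Slc18a2, with Tph2 at an adjusted p of 0.0532, Fev at 0.0662 and Slc6a4 at 0.120. Whether albino brains hold more serotonin neurons, albino dissections took in more of them, or each held more RNA cannot be told apart here.

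Levels can be set across genes only per length, as CPM divided by kilobases of exon (RPKM). On this scale Tph2 had the highest mean in the albino CN6 set with 30.8 ± 36.8 RPKM (SD, n = 4). Dbh followed with 28.2 ± 11.5, Slc18a2 with 21.3 ± 13.1 and Slc6a2 with 17.7 ± 8.37 RPKM. The lead of Tph2 rested on albino CN6 1, at 84.7 RPKM. Tph2 had 4.01, 11.1 and 23.5 RPKM in the libraries labelled albino CN6 2, TA 1 and TA 2, while Dbh had 17.8 to 39.2 RPKM over the set. In C57BL/6 CN6, Ddc (4.57 ± 1.40 RPKM), Dbh (4.49 ± 3.30), Slc18a2 (3.93 ± 0.71), Tph2 (3.37 ± 1.78) and Th (2.99 ± 1.15) did not differ beyond their spread. In the albino CN3 set Tph2 had 49.3 ± 35.1 RPKM, and Ddc with 19.8 ± 9.40, Slc6a4 with 18.9 ± 13.4, Slc18a2 with 18.6 ± 10.8, Th with 15 ± 7.51 and Slc6a3 with 13.9 ± 7.79 RPKM did not differ beyond their spread. In C57BL/6 CN3 the dopamine genes led, with Slc6a3 at 13.1 ± 12.6, Th at 9.02 ± 7.68, Ddc at 8.20 ± 3.83 and Slc18a2 at 4.65 ± 3.54 RPKM, and the other 6 members averaged 0.0406 to 0.546 RPKM. The wide SD of Tph2 in the albino sets is the spread between libraries already given.

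Across the 16 brain libraries, some pairs of members kept closer proportions than others. Where both genes had at least 100 counts, Slc6a4 had 0.382 to 0.650 counts per count of Tph2 in 11 libraries, over a range of Tph2 from 8.0 to 244 CPM. Slc17a8 had 0.0739 to 0.897 counts per count of Tph2 in 12 libraries, lowest in the albino CN3 set (0.0739 to 0.126). Slc6a2 had 0.751 to 1.59 counts per count of Dbh in 9 libraries, and here the albino CN6 set (1.32 to 1.59) lay above C57BL/6 CN6 (0.751 to 1.21). Pearson's r of log2 CPM over the 16 libraries, which share the split by nucleus and genotype, was 0.97 for Tph2 with Slc6a4, 0.99 for Dbh with Slc6a2, 0.39 for Tph2 with Dbh, 0.08 for Tph2 with Slc6a3 and −0.65 for Dbh with Slc6a3. Th went along with Ddc (0.88) and Slc18a2 (0.85) more closely than with Slc6a3 (0.61) or Dbh (0.08).

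**Figure D3:**
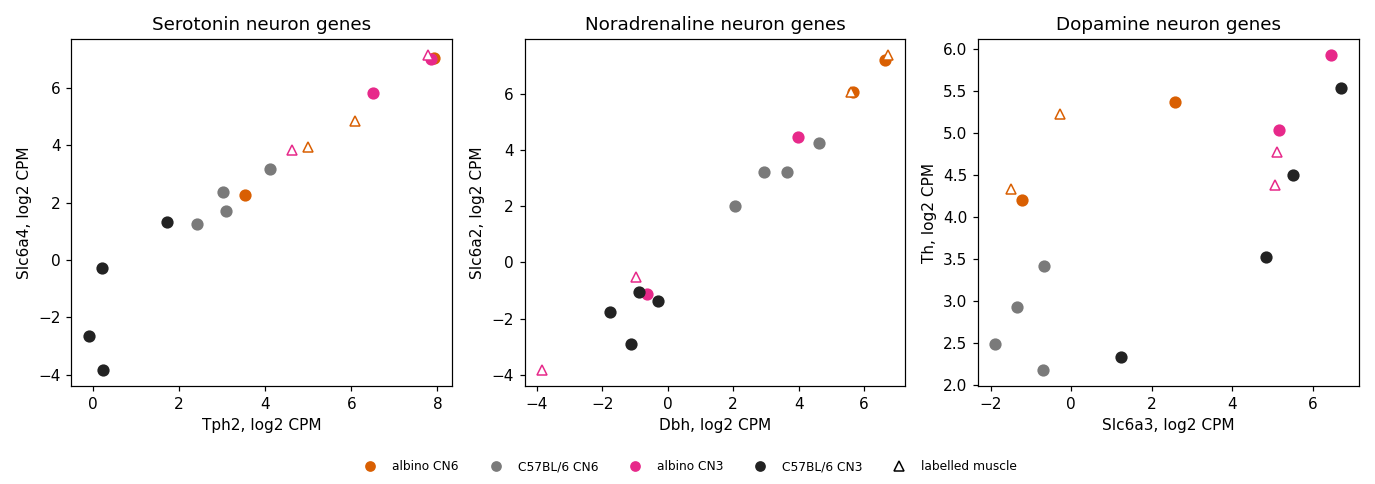
Log2 CPM of partner genes in the 16 brain libraries: Slc6a4 against Tph2, Slc6a2 against Dbh, and Th against Slc6a3, with open triangles for libraries labelled as muscle. The first and second pairs lie near a line, while Th is spread over 2 arms, one with Slc6a3 in CN3 and one without it in CN6.

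By the same measure, among 14425 genes with a mean of at least 1 CPM, the 5 nearest to Tph2 were Slc6a4 (0.97), Asb4 (0.94), Slc17a8 (0.93), Fev (0.91) and En1 (0.91). En1, a homeobox gene of the midbrain and anterior hindbrain, had 14.5, 2.81, 2.65 and 7.22 CPM in the albino CN6 set and 13.8, 11.7, 14.8 and 2.43 CPM in the albino CN3 set, against 0.941 to 3.20 CPM in the 8 C57BL/6 libraries. The 5 nearest to Dbh were Slc6a2 (0.99), S100a10 (0.93), Otp (0.91), Stk32a (0.91) and Layn (0.90). For Slc6a3 they were Dscam (0.97), Sez6l (0.96), Ncor1 (0.95), Rims3 (0.95) and Rims2 (0.95), none of them among the listed dopamine neuron genes, and Dscam ranged only from 73.5 to 110 CPM while Slc6a3 ranged from 0.201 to 105 CPM.

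Between the C57BL/6 nuclei, serotonin and adrenergic receptor genes moved in both directions and dopamine receptor genes fell. In C57BL/6 CN6 over C57BL/6 CN3, with 12.7% of all genes higher and 13.3% lower and a median log2 fold change of −0.01 over all genes, 2 of 12 serotonin receptor genes tested rose and 2 fell, with a median of 0.01. Htr3a, the subunit of the serotonin-gated channel, rose by 1.77 ± 0.23 (4.17 ± 0.87 CPM in CN6 and 1.26 ± 0.41 CPM in CN3, SD, n = 4 each, adjusted p = 0.000344), and Htr4 fell by 0.68 ± 0.15 (adjusted p = 0.00526). Of 9 adrenergic receptor genes 3 rose and 1 fell, with a median of 0.05, led by Adra1d at 1.05 ± 0.16 (adjusted p = 0.000836). Of 4 dopamine receptor genes tested 0 rose and 3 fell, with a median of −1.49: Drd1 fell by 2.01 ± 0.28 (0.731 ± 0.253 CPM in CN6 and 3.05 ± 0.67 CPM in CN3, adjusted p = 0.000505), Drd2 by 1.09 ± 0.22 (7.27 ± 0.58 CPM in CN6 and 15.7 ± 2.06 CPM in CN3, adjusted p = 0.00364) and Drd5 by 0.58 ± 0.19 (adjusted p = 0.0356, lost without any of 4 single libraries, up to 0.107). Of 6 genes of monoamine breakdown tested 1 rose, Aldh1a1 by 0.52 ± 0.18 (adjusted p = 0.0498), a call lost with DESeq2 size factors (0.0508), by DESeq2 (0.0640) and without any of 7 single libraries (up to 0.117), and of 7 genes of the tetrahydrobiopterin cofactor that Th and Tph2 need, 0 were called.

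Transcription factor lists were mixed. Of 9 serotonin neuron factors 0 rose and 4 fell in C57BL/6 CN6 over CN3, although Tph2 rose, with Gata3 at −2.76 ± 0.36 (3.14 ± 1.82 CPM in CN6 and 21.7 ± 1.94 CPM in CN3, adjusted p = 0.000338) and Foxa2 at −4.92 ± 1.26 (adjusted p = 0.0133, and 0.0969 by limma voom). Gata3 is also a gene of midbrain GABA neurons and Foxa2 of dopamine neurons. Of 9 noradrenaline neuron factors tested 3 rose and 3 fell. Of 10 dopamine neuron factors 1 rose and 5 fell, with Otx2 at −4.34 ± 0.58 (adjusted p = 0.000382). Of 17 accompanying genes tested 4 rose and 2 fell: Slc29a4, a low-affinity monoamine transporter, rose by 0.82 ± 0.08 (adjusted p = 8.37e-05) and Gucy2c, a receptor found on dopamine neurons, fell by 2.53 ± 0.40 (0.524 ± 0.129 CPM in CN6 and 3.13 ± 1.58 CPM in CN3, adjusted p = 0.00106). The hindbrain list, 11 of 13 genes higher and 0 lower, and the midbrain list, 1 of 12 higher and 7 lower, moved with this contrast as well.

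Between genotypes few of these genes passed. In albino CN3 over C57BL/6 CN3, 0 of 12 serotonin receptor, 9 adrenergic receptor, 4 dopamine receptor, 6 breakdown and 7 cofactor genes tested were called, where 0.205% of all genes were higher and 0.0422% lower. En1 rose by 2.95 ± 0.45 (12.8 ± 1.48 CPM, n = 2, in albino and 1.66 ± 0.51 CPM, n = 4, in C57BL/6, adjusted p = 0.0172). This call was lost without albino CN3 1 (0.0873), albino CN3 2 (0.164) or C57BL/6 CN3 4 (0.0672), and with the replicate block (0.0535). Gch1, the first enzyme of the cofactor pathway, had 4.23 to 16.1 CPM in the albino CN3 set and 1.54 to 5.18 CPM in C57BL/6 CN3. Maoa, which breaks down serotonin and noradrenaline, had 94.3 to 127 CPM in the albino CN6 set, above all of C57BL/6 CN6 at 68.4 to 89.9 CPM, and was not called.

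Muscle libraries give the level of these genes outside the brain. Tph2, Fev and Slc6a3 had at most 0.162, 0.0848 and 0.187 CPM in the 16 libraries of muscle kind. In EOM, however, catecholamine genes were present at a level that some brain samples do not reach. Slc6a2 had 10.2, 10.3, 8.79 and 8.62 CPM in C57BL/6 EOM, against 0.160, 0.537, 0 and 0.715 CPM in C57BL/6 TA. Th had 8.84, 9.49, 11.9 and 9.13 CPM in EOM, against 0.160, 0, 0.0866 and 0.0715 CPM in TA. Both were present in every EOM library and at most at a trace in TA, and the EOM level of Slc6a2 exceeded that of every C57BL/6 CN3 library. Slc18a2 had 4.83, 5.23, 8.53 and 5.05 CPM in EOM, against 2.32, 3.18, 2.81 and 2.11 CPM in TA, and the groups do not overlap.

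In C57BL/6 EOM over C57BL/6 TA 75.9% of 15670 genes were called, 41.4% higher, and of the 7 members that passed the filter on low counts 6 rose and 0 fell. Th rose by 6.16 ± 0.35 (adjusted p = 9.15e-10) and Slc6a2 by 3.94 ± 0.41 (adjusted p = 6.50e-07). Ddc rose by 2.71 ± 0.54 (2.30 ± 0.26 CPM in EOM and 0.214 ± 0.175 CPM in TA, SD, n = 4 each, adjusted p = 0.00035), and Slc6a4 by 2.29 ± 0.58 (1.39 ± 0.18 CPM in EOM and 0.169 ± 0.148 CPM in TA, adjusted p = 0.00235). Slc17a8 (1.38 to 2.04 CPM in EOM, 0 to 0.0715 CPM in TA) and Dbh (0.971 to 1.74 CPM in EOM, 0 to 0.0800 CPM in TA) were called as well, with no fold given since TA held 2 counts of each in all. Slc18a2 had 0.44 ± 0.24 and was not called (adjusted p = 0.106), although its CPM averaged 5.91 ± 1.75 in EOM and 2.61 ± 0.48 in TA. TMM scaling puts the fitted EOM over TA values of 5 members 0.72 to 0.81 log2 units below the log2 ratio of mean CPM on deposited totals. The muscle libraries labelled albino CN3 3 and 4 had 13 and 15.2 CPM of Slc6a2 and 8.50 and 8.29 CPM of Th, levels like those of EOM, and those labelled albino CN6 3 and 4 had 0.526 and 1.09 CPM of Slc6a2 and 0.316 and 0.336 CPM of Th, levels like those of TA.

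**Figure D4:**
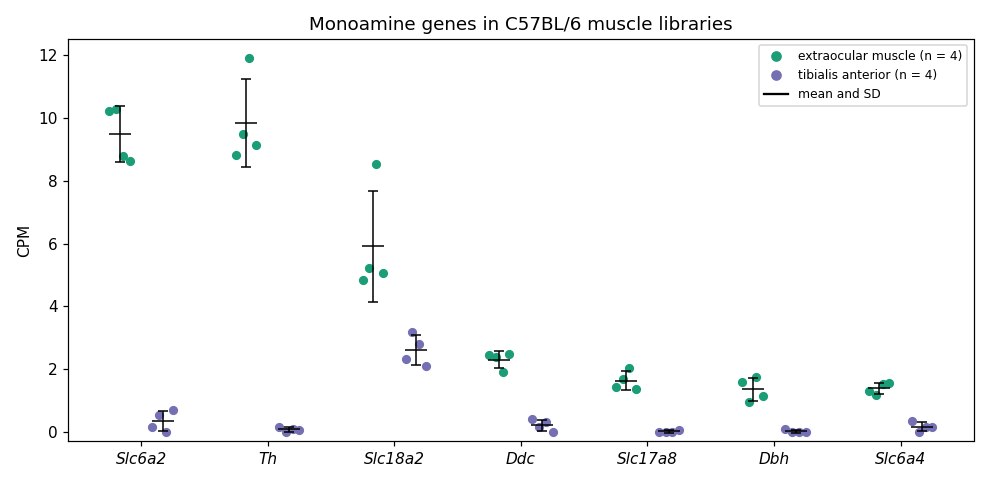
CPM of the 7 genes tested in C57BL/6 muscle, with each library as a point and the mean and SD in black. Slc6a2 and Th lie between 8.62 and 11.9 CPM in extraocular muscle and under 1 CPM in tibialis anterior.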

How the data were processed

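RNA from nucleus and muscle samples was sequenced in 32 libraries. The deposited table holds whole-number read counts for gene symbols, which the authors left unnormalized, as its values show. Per the submitters' processing notes, Trimmomatic 0.33, FastQC, HISAT2 2.1.0, featureCounts, edgeR and the mouse build mm10 were used; annotation and strand setting are not given in the sources used here, so reads of overlapping antisense genes cannot be told apart. Between 74.8% and 84.3% of counts from 1 to 19 in a library were even, so single counts were not taken as independent molecules and no counting intervals are given. Totals ran from 18544334 to 44254021 counts, where 3 counts are 0.0678 to 0.162 CPM. Of the gene names 27 are date-like. No pair of libraries with the same genotype and tissue label agreed within sampling noise, and pairs across labels were not compared.

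Library kind was taken from mean log2 CPM of fast fibre against glutamatergic genes. No sample was moved from its labelled group in the 12-library comparisons; the albino sets follow markers. The fits used filterByExpr, TMM scaling and edgeR 4.0.16 (R 4.3.3). The code was tried on simulated counts with the same dispersion for every gene. That spread was narrower than the spread of several members between libraries, so the trial says nothing about how reliable the members' calls are. CPM uses deposited totals, log2 CPM a prior count of 2. Positions and exon lengths are from GENCODE release 21 on mm10. The members, the 22 gene lists and the tests were chosen with earlier results of these data known. Named besides the members are up to 4 genes per list with the smallest adjusted p and the 5 most like Tph2, Dbh and Slc6a3; Gch1, Maoa, Nnt and single markers were named after their values were seen. Alternatives were DESeq2 1.42.0, its size factors, limma 3.58.1 voom, no filter, a replicate block, the labels as given, the albino sets and leaving out each library; the EOM over TA, the 8 over 8 comparison and the sets without a library were added after seeing the data.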

Additional observations from a re-analysis of the deposited data

Results flagged for a closer look

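Of 48 member and group combinations with 4 libraries that were checked, 4 held a library far from the other 3, measured as its gap to the nearest library over the group's range, where chance alone gives about 1 in 20. Slc6a3 was 88.4 CPM in the library labelled albino CN3 2 and 33.2 to 36 CPM in the rest of the albino CN3 set. That library was also highest of its set for Th, Ddc, Slc18a2, Slc17a8, Tph2, Dbh and Slc6a2, and Slc6a4 and Fev were higher in albino EOM 1. Slc17a8 was 7.54 CPM in C57BL/6 CN6 2 and 4.16 to 4.52 CPM in the other C57BL/6 CN6 libraries. In C57BL/6 EOM 3, Slc18a2 was the highest of its group at 8.53 CPM, with the rest at 4.83 to 5.23 CPM. Ddc was lowest in the same library at 1.91 CPM, with the rest at 2.37 to 2.48 CPM.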

How the results depend on the processing

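Counts of called genes moved in every brain comparison, and the cause was not tested. Counts of called members moved too, except in the difference of genotype differences, where no member was called under any setting. C57BL/6 CN6 over C57BL/6 CN3 gave 4311 genes and 5 members, and 14 genes and 0 members with the labels as given, which puts muscle libraries in the albino groups; limma voom called 1 member. Albino CN3 over C57BL/6 CN3 gave 41 genes and 3 members. It gave 190 genes and 6 members by DESeq2, 383 genes with the albino sets, 385 genes and 5 members with the sets less albino CN6 1, 98 genes with the sets less albino CN3 2, 0 genes and 0 members as labelled, and 0 members by voom. Albino CN6 over C57BL/6 CN6 gave 5 genes and 0 members. It gave 9 genes with no filter, 64 genes and 1 member by DESeq2, 19 genes with the sets, 18 genes less albino CN6 1, 22 genes and 2 members less albino CN3 2, and 0 genes as labelled. Albino CN6 over albino CN3 gave 6 genes and 0 members. It gave 11 genes with no filter, 143 by DESeq2, 1 by voom, 1745 genes and 3 members with the sets, 2834 genes and 5 members less albino CN6 1, 1868 genes and 3 members less albino CN3 2, and 0 genes as labelled. The difference of genotype differences gave 2 genes, and 11 by DESeq2, 0 by voom, 5 with the sets, 4 less albino CN6 1, 5 less albino CN3 2 and 0 as labelled. The comparison of 8 with 8 brain libraries gave 188 genes and 5 members, and 619 genes by DESeq2, 793 genes and 8 members with a nucleus term, 86 genes less albino CN6 1, 94 genes less albino CN3 2, and 1 member by voom.

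Leaving out 1 library gave 2856 to 4672 genes and 4 to 6 members for C57BL/6 CN6 over C57BL/6 CN3 (2856 without C57BL/6 CN6 4) and 11455 to 12028 genes and 6 members for C57BL/6 EOM over C57BL/6 TA. It gave 6 to 55 genes and 0 to 5 members for albino CN3 over C57BL/6 CN3 (6 without albino CN3 2, 15 without C57BL/6 CN3 4, 20 without C57BL/6 CN3 3), and 4 to 228 genes and 0 to 6 members for albino CN6 over C57BL/6 CN6 (228 without albino CN6 2). It gave 0 to 250 genes and 0 to 1 member for albino CN6 over albino CN3 (250 without albino CN6 1), and 0 to 20 genes and 0 members for the difference of genotype differences (20 without albino CN6 2). Where an albino group was left with 1 library, that library was assumed to vary like the other groups.

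The labels do not say whether same-numbered libraries share a mouse. Their deviations correlated at 0.0331, −0.1405, 0.1209 and 0.0643 in C57BL/6, inside the range of differently numbered libraries (−0.197 to 0.173). In albino the value was 0.193, where 2 libraries a group allow only 0.193 or −0.193. These values cannot decide whether same-numbered libraries are paired, and the replicate block is given as an alternative only. With the replicate block, C57BL/6 CN6 over C57BL/6 CN3 gave 4457 genes and 6 members, albino CN3 over C57BL/6 CN3 20 genes and 1 member, albino CN6 over albino CN3 10 genes, and the difference of genotype differences 5 genes.

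Of the members' log2 values, 50 changed sign under an alternative, 119 lost a call, 49 gained one and 1836 kept direction and side of the threshold. No value that changed sign had been called. In C57BL/6 CN6 over C57BL/6 CN3, Slc18a2 was 0.089 by voom and 0.039 with the block. In albino CN3 over C57BL/6 CN3, Dbh was −0.45 with the sets less albino CN3 2, and Slc6a3 was −0.38 there and −0.52 as labelled. In albino CN6 over albino CN3, Slc17a8 was −0.11 by voom, −0.12 as labelled and −0.51 with the sets less albino CN6 1. Slc18a2 there was −0.023 by voom, −0.24 with the sets less albino CN6 1 and −0.080 with the block, and Th was 0.13 with the sets less albino CN3 2. In the difference of genotype differences, Dbh was 3.09 and Slc6a2 3.08 with the sets less albino CN3 2, and Ddc was −0.15 by voom and −0.48 with the sets less albino CN6 1. Slc18a2 there was −0.11 by voom, −0.031 with the sets less albino CN6 1 and −0.12 with the block. In the comparison of 8 with 8, Slc6a3 was −0.52 less albino CN3 2.

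Leaving out 1 library turned these signs. In C57BL/6 CN6 over C57BL/6 CN3, Fev ran from −0.20 to 0.45 and Slc18a2 from −0.49 to 0.43. In albino CN3 over C57BL/6 CN3, Slc6a3 ran from −0.32 to 1.30. In albino CN6 over C57BL/6 CN6, Slc6a3 ran from −0.18 to 3.83 and Slc6a4 from −0.051 to 4.72. In albino CN6 over albino CN3, Tph2 ran from −3.79 to 0.59, Slc6a4 from −4.28 to 0.48, Fev from −3.01 to 0.48, Slc17a8 from −1.50 to 1.28, Ddc from −2.14 to 0.23 and Slc18a2 from −1.11 to 0.93. In the difference of genotype differences, Dbh ran from −2.51 to 2.25, Slc6a2 from −3.04 to 2.76, Fev from −3.09 to 0.41, Ddc from −1.32 to 1.05, Slc18a2 from −0.90 to 1.15 and Slc6a3 from −0.66 to 3.36. At this depth a gene with 3 counts has at most 0.162 CPM, so members near that level in C57BL/6 CN3 and in muscle were close to the limit of detection.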

Other observations

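Tph1, the tryptophan hydroxylase of the pineal gland and gut, was 7.27 CPM in C57BL/6 CN3 1 and 2.43 CPM in the library labelled albino EOM 2, and at most 0.326 CPM in the other 14 brain libraries. Htr1a, the serotonin autoreceptor, was 37.1, 34.0 and 33.1 CPM in the libraries labelled albino CN6 1, EOM 1 and CN3 1 and 21 to 27.9 CPM in the other albino brain libraries, against 17.6 to 24.3 CPM in the 8 C57BL/6 ones. Maob, a monoamine oxidase, was 58.2 to 80.9 CPM in the albino CN3 set, above C57BL/6 CN3 at 35.2 to 53.8 CPM, and overlapped in CN6, with 31.5 to 69.0 CPM in the albino set and 27.3 to 40.4 CPM in C57BL/6. These genes were picked after their values were seen.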
